A study of Mus musculus with 9 samples.

Results

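The collagen chain genes are the 44 rows, of 46517 in the deposited count table, whose symbol has the form Col, a number, a and a number, such as Col1a1. Each encodes 1 alpha chain of a collagen. They were described across 9 cell type labels: aEC, capilEC, vEC and CP-EC, whose cells carried endothelial markers, PC, aSMC and vSMC, whose cells carried mural markers (pericytes and smooth muscle), FB, whose cells carried fibroblast markers, and MG, whose cells carried microglial markers. The sources used here do not spell the labels out. The cells came from dissociated vessel fragments of the brains of adult mice and were read with Smart-seq2, which sequences whole transcripts of single cells. No treatment, genotype, strain or sex was named for any label, and animals were not named.

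Collagens are triple helices of 3 alpha chains, in which glycine recurs at a fixed spacing along each chain. Fibrillar collagens such as types I and III form the cables of connective tissue, whereas type IV collagen forms the sheet-like network of the basement membrane that encloses brain vessels. Type I collagen is usually built from the products of Col1a1 and Col1a2, and the main type IV protomer from those of Col4a1 and Col4a2, so partner genes are set side by side below.

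The glycine repeat can be read in the genes. The coding bases that open the longest unbroken repeat are shown for the 5 chains that carry most of the results, with the glycine codon that opens each triplet of codons (GGN, N being any base) in capitals. Glycine codons at the other positions, as in Col3a1, stay in lower case.
Col1a1: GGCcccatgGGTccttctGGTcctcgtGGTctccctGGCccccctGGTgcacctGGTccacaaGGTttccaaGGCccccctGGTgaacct
Col1a2: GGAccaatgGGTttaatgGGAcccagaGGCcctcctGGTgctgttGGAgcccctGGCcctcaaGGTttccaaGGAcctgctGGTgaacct
Col3a1: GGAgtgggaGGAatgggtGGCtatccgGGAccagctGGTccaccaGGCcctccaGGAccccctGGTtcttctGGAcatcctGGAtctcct
Col4a1: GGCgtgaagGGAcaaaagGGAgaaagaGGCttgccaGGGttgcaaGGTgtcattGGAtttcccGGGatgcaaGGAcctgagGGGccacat
Col4a2: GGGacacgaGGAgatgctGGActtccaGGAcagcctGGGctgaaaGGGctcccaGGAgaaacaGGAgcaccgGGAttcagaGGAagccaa
Each stretch is 90 bases of coding sequence with introns left out, from the GENCODE M21 transcripts on GRCm38, read on the coding strand. The Col1a1 stretch lies within chr11:94939451-94939939 on the plus strand (exons 6 to 8), that of Col1a2 within chr6:4512406-4515516 on the plus strand (exons 6 to 8), and that of Col3a1 within chr1:45323762-45325413 on the plus strand (exons 5 to 6). The Col4a1 stretch lies within chr8:11247024-11267614 on the minus strand (exons 2 to 3), and that of Col4a2 within chr8:11429447-11431247 on the plus strand (exons 29 to 30). All 44 members held a run of at least 20 such triplets of codons in a row, as did 64 of the 21739 genes with a coding sequence in that annotation (0.294%).

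The repeat differed in its continuity between the fibrillar and the type IV chains. The longest run held 338 triplets in Col1a1, 339 in Col1a2 and 344 in Col3a1, and each of these genes had 2 runs of 4 or more triplets. The 6 type IV chains were broken into 22 to 27 such runs, and the longest run held 40 triplets in Col4a1 and 66 in Col4a2. Set side by side from their first base, the printed Col1a1 and Col1a2 stretches had 40 of the 60 lower-case bases in common, and the other pairs 14 to 26. No run of 50 bases of Col1a1, Col4a1 or Col4a2 occurred in a transcript of another gene, and such shared runs made up 0.064% of those of Col1a2 and 0.927% of those of Col3a1. The largest share in the family was 3.54% in Col6a6, mostly with Col6a5.

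Type IV genes lie in pairs, head to head. The RefSeq starts of Col4a1 and Col4a2 overlap by 22 bases on GRCm38.p6, at chr8:11312805-11312826, shown here on the plus strand because both genes are transcribed from it in opposite directions.
Col4a1 and Col4a2 starts: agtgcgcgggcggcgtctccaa
Of the 27025 genes in the RefSeq promoter table, 3064 (11.338%) had a start on the opposite strand within 300 bases. Of the 35 collagen genes found in that table, 2 did, Col4a1 and Col4a2. Col4a5 and Col4a6 start 1343 bases apart on the X chromosome. In GENCODE M21, the starts of Col4a4 (position 82586849 of chromosome 1, minus strand) and Col4a3 (82586921, plus strand) also face away from each other.

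The table held 285520064 reads in 1235 cells from 4 sorted plates (named s169s, s480s, s482s and s483s by the prefix of the cell names), with 100021 to 854836 reads per cell. The labels held 116 aEC, 787 capilEC, 45 vEC, 17 CP-EC, 54 PC, 41 aSMC, 29 vSMC, 9 FB and 137 MG cells. Each label was deposited as 1 sample, so no test between labels was possible, and differences were described by size and by whether they recurred in each plate. The value of a label is the number of reads per 1000000 (CPM) over the sum of its cells, and its interval is an exact Poisson 95% interval that covers counting error only. Whether the plates came from different animals was not given in the sources used here. The fibroblast and microglial sums followed the labels: the 8 fibroblast markers summed to 14597 CPM in FB against at most 1057 CPM elsewhere, and the 5 microglial markers to 19622 CPM in MG against at most 412 CPM elsewhere. Other lists were less specific. The 5 arterial endothelial markers summed to 1581 CPM in aEC but to 1668 in PC, 1781 in aSMC and 2401.5 in vSMC. In FB the 4 venous endothelial markers summed to 1527 CPM (2895 in vEC) and the 5 astrocyte markers to 1573.5 CPM. In vSMC the 4 pericyte markers summed to 5860 CPM beside 5484 CPM of the 4 smooth muscle markers, so the label shared markers with PC. In FB the pericyte list summed to 4765 CPM, with only 1 of its 4 genes at 5 CPM or more, and the 5 mural markers summed to 547 CPM. The 8 endothelial markers summed to 1873 CPM in PC, 1819 in vSMC and 594 in aSMC, against 7208 to 10967 CPM in the endothelial labels.

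Of the 44 genes, 6 reached 50 CPM in some label with a read in at least 50% of its cells: Col4a1, Col4a2, Col4a5, Col1a1, Col1a2 and Col3a1. A further 26 reached 5 CPM without meeting both minimums. The other 12 stayed below 5 CPM in all labels, and 4 of these, Col6a5, Col9a1, Col17a1 and Col24a1, had no read in any cell. The remaining 8 were Col2a1, Col6a4, Col7a1, Col10a1, Col11a1, Col11a2, Col19a1 and Col25a1. Of the 32 genes at 5 CPM or more, 16 had their highest level in FB, 8 in PC, 2 each in CP-EC and aSMC, 1 each in aEC, vEC, vSMC and MG, and none in capilEC, the label with the most cells. The share of all genes that lead in each label is not given here. FB has 9 cells, and 20 of the 32 genes drew at least 50% of the reads of their leading label from 1 cell. The count is therefore not read as a trait of FB.

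**Figure D1:**
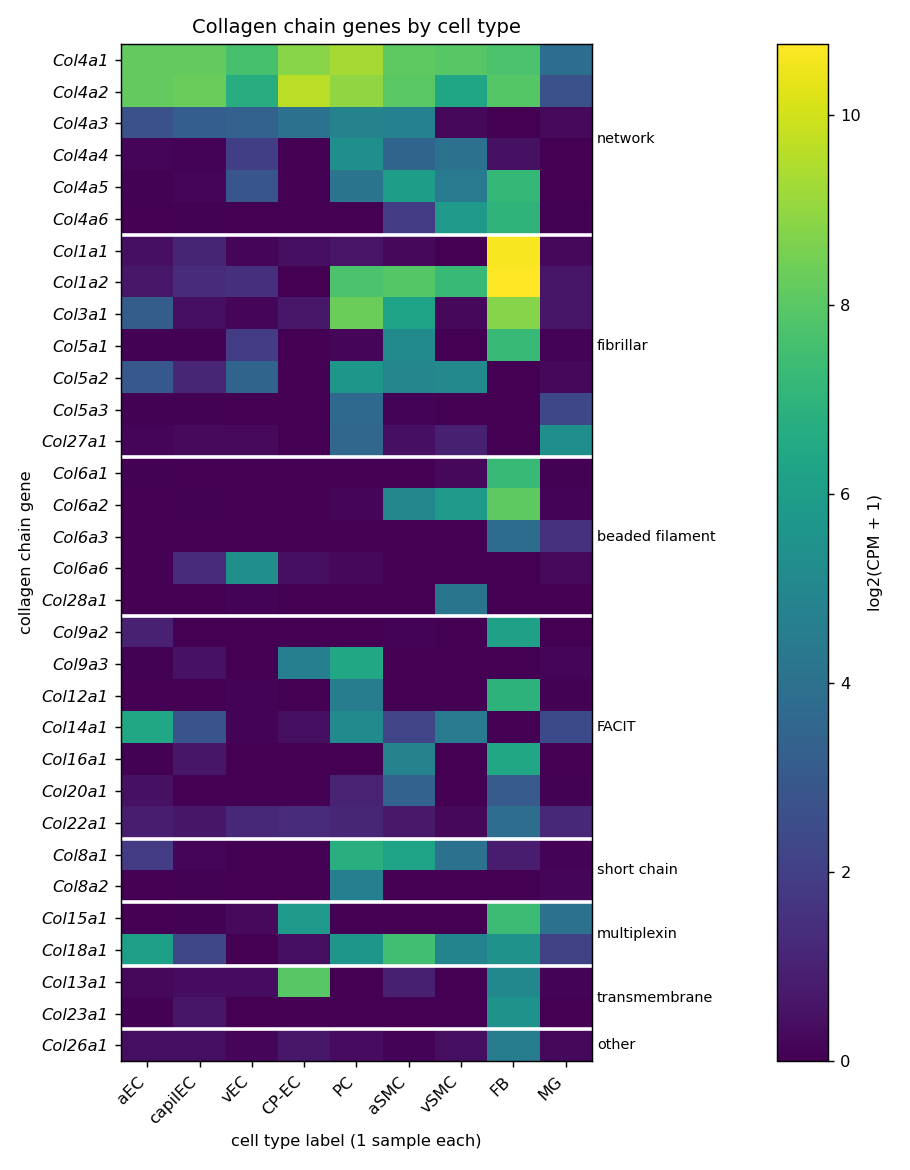
Level of the 32 collagen genes that reached 5 CPM in some label (rows, grouped by structural class) in each of the 9 cell type labels (columns), as log2(CPM + 1), 1 sample each. Col4a1 and Col4a2 are bright in every vascular label and dark in MG, Col1a1 is bright in FB alone, and Col1a2 is bright in FB and in the 3 mural labels.

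All collagen genes together gave 5678 CPM in FB, 2160 in PC, 1607 in CP-EC and 1323 in aSMC. The sum was 748 CPM in aEC, 739.6 in vSMC, 627 in capilEC, 375 in vEC and 92.4 in MG. FB thus stood highest, and MG lowest. Per cell, the median number of chains at 50 CPM or more was 5 in FB, 2 in PC, aSMC and CP-EC, 1 in aEC, capilEC, vEC and vSMC, and 0 in MG. Of the MG cells, 86.1% had no chain at that level.

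The make-up of the collagen reads changed from label to label. Type IV genes gave 96.9% of the collagen reads of capilEC, 84.4% of vEC, 79.4% of CP-EC and 77.2% of aEC, but 47.0 to 56.9% of the mural labels and 12.7% of FB. Fibrillar genes gave 69.0% of the collagen reads of FB and 25.2 to 28.5% of those of PC, aSMC and vSMC, against 0.0564 to 4.02% in the 4 endothelial labels. The shares compare labels, because longer transcripts give more Smart-seq2 reads and shares of different genes are not on 1 scale. In MG, fibrillar genes gave 49.4% of few reads, most of them from Col27a1.

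**Figure D2:**
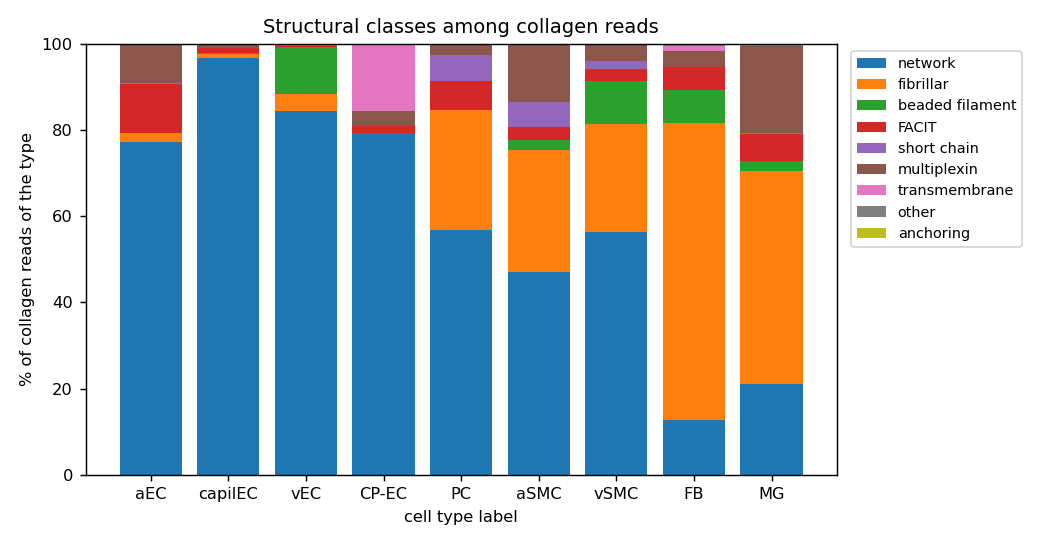
Percentage of each label's collagen reads that came from each structural class of collagen gene, as bars stacked to 100. Network (type IV) genes fill 77.2 to 96.9% of the endothelial bars, and fibrillar genes fill 69.0% of the FB bar.

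Col4a1 and Col4a2, the ubiquitous type IV chains, were read in every label. Col4a1 stood at 641 CPM in PC, 461 in CP-EC, 285 in aEC, 285 in capilEC, 269.6 in aSMC, 246 in vSMC, 209 in FB, 195 in vEC and 13.8 in MG. The PC value was above those of the other labels, and the 4 PC plates (384 to 1202 CPM) did not overlap the 4 plates of aEC (218 to 353 CPM) or capilEC (226 to 355 CPM). They did overlap aSMC (96.3 to 420.3 CPM), and the only CP-EC plate with at least 5 cells (467 CPM) lay within their range. Without plate s480s, PC was at 488 CPM and CP-EC at 485 CPM, so the lead of PC over CP-EC rests on that plate. Without the PC cells that carried markers of another class, such as endothelial ones, PC was at 774 CPM. The same filter left CP-EC at 338 CPM, so its place above aEC (302 CPM then) rests in part on 3 cells. Further down the order, aEC, capilEC, aSMC, vSMC and vEC overlapped one another across plates, and no order could be read among them.

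Col4a2 had another order. It stood at 799 CPM in CP-EC, 504 in PC, 313 in capilEC, 287 in aEC, 252 in aSMC, 242 in FB, 103 in vEC, 81.8 in vSMC and 5.37 in MG. Without plate s483s, CP-EC was at 467.9 CPM and PC at 440.0 CPM, so the lead of CP-EC rests on that plate. FB fell to 143 CPM without its top cell and stood at 396 CPM without plate s169s, and its Col4a1 level was 127 CPM without plate s482s and 339 CPM without s169s. In vEC the 4 plates ran from 64.7 to 137 CPM, below all 4 capilEC plates (164 to 398 CPM), and the difference was -1.56 on log2(CPM + 5), with -1.81 to -1.28 across plates. Col4a1 differed by -0.53 between the same labels, with plates of both signs (-1.53 to 0.60). In vSMC, Col4a2 was below aSMC by 1.57 log2 units and lower in 4 of 4 plates, although without plate s483s alone the difference passed the 4-fold line (-2.08). In the 7 aEC cells of plate s169s, Col4a2 was at 9.24 CPM and Col4a1 at 353 CPM, against 246 to 339.7 CPM of Col4a2 in the other aEC plates.

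**Figure D3:**
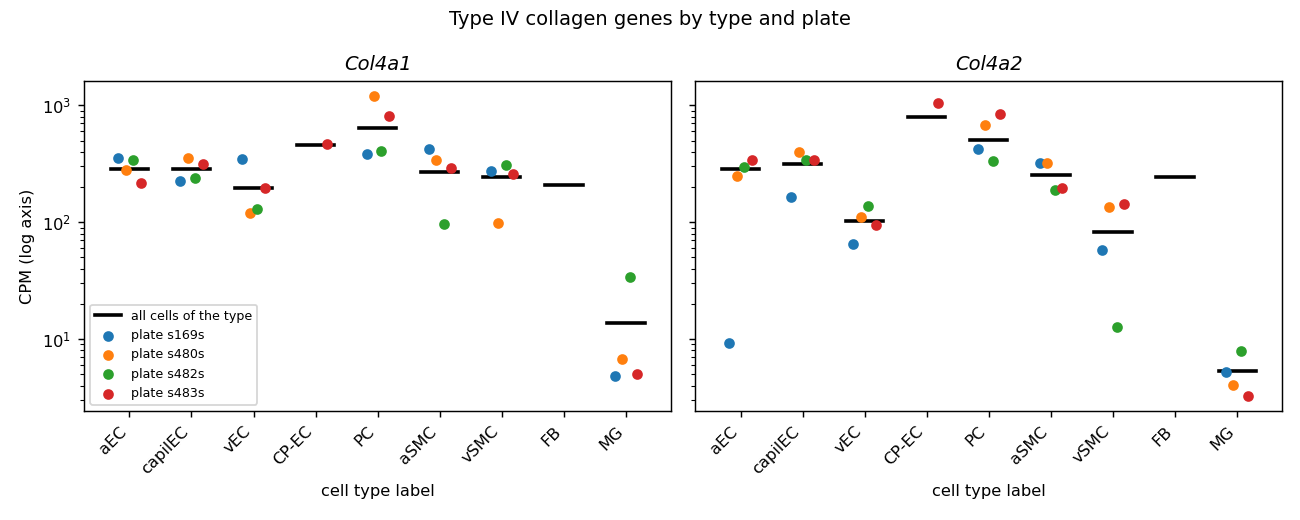
CPM of Col4a1 (left) and Col4a2 (right) on a log axis by label, with a black line for all cells of the label and 1 point for each plate with at least 5 cells of it. FB had no such plate and CP-EC had 1. The vEC points of Col4a2 lie below the capilEC points, the MG points lie lowest, and the s169s aEC point of Col4a2 stands alone at 9.24 CPM.

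Most MG cells held Col4a1 at the level of the low cells of other labels. In MG a Col4a1 read was present in 58.4% of cells (38.7% after thinning each cell to 100000 reads), compared with 77.4% (66.1% thinned) of capilEC cells. Only 4 of 137 MG cells reached 50 CPM of Col4a1 and 1 of 137 reached 50 CPM of Col4a2. Cells below 50 CPM averaged 3.98 CPM of Col4a1 in MG and 3.94 to 6.96 CPM in the other 8 labels, so a read in a cell is not by itself taken as expression here. The minimum of 50% of cells, used above and in the comparisons below, still counts any read. A single cell gave 36.4% of the Col4a1 reads of MG.

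Cells of the same label were split between high and near-background levels. Of the 787 capilEC cells, 310 (39.4%) held at least 50 CPM of Col4a1, with a median of 560.2 CPM, and 323 (41.0%) held at least 50 CPM of Col4a2, with a median of 541 CPM. Both were at 50 CPM or more in 158 cells, which is 51.0% of the Col4a1 cells and 48.9% of the Col4a2 cells. Among cells below 50 CPM of Col4a1, 34.6% were at 50 CPM or more of Col4a2. The share of cells with at least 50 CPM of Col4a1 was 63.0% in PC, 70.6% in CP-EC and 34.5 to 46.6% in aEC, vEC, aSMC, vSMC and FB.

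Across the 787 capilEC cells, the 5 genes whose CPM followed Col4a1 most closely, of 2018 genes read in at least 50% of those cells, were Ltbp4 (Spearman's rho 0.19), Spock2 (0.16), Col4a2 (0.15), Fzd6 (0.14) and Rgs3 (0.14). Col4a2 was thus among the 5. All of these correlations were weak, they are a description over cells that share libraries and plates, and in sparse reads a weak correlation is no finding. The correlation of Col4a1 with reads per cell was 0.04.

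The ratio of the partners, corrected for the length of their exons, varied between labels. Per kilobase of exon, Col4a1 was 0.88 times Col4a2 in aEC, 0.81 times in capilEC, 0.95 times in aSMC, 1.13 times in PC and 0.76 times in FB. The ratio was 0.512 in CP-EC (0.480 to 0.545), 1.68 in vEC (1.58 to 1.80) and 2.67 in vSMC (2.41 to 2.95), with intervals for counting error only. Across plates it ran from 0.841 to 4.74 in vEC and from 0.65 to 21.7 in vSMC. In capilEC the 4 plates lay between 0.624 and 1.22, which overlaps both. In CP-EC, plate s483s alone gave 0.397, and without that plate Col4a1 was at 452 CPM and Col4a2 at 467.9 CPM, so the low CP-EC ratio rests largely on it.

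Levels of different genes can be compared only per length of exon. On that scale, reads per 1000000 and kilobase, Col4a2 led in aEC (43.3), capilEC (47.4), CP-EC (121) and aSMC (38.1). Col4a1 led in vEC (26.2), PC (85.9) and vSMC (33.0). Together the pair led in every endothelial and mural label, although in vSMC Col4a2 (12.36) and Col1a2 (12.29) were nearly level. Col1a1 led in FB (242, or 34.1% of the summed collagen level per kilobase) and Col27a1 in MG (3.08). Col1a2 followed in FB at 139. The union of annotated exons is 12426 bases for Col1a2 and 6563 for Col1a1, but their coding sequences are 4116 and 4359 bases. The lead of Col1a1 over Col1a2 in FB thus rests on the length used, and in CPM Col1a2 was the higher (1727 against 1589). The place of Col1a2 after Col4a1 and Col4a2 in aSMC and vSMC rests on the length used too. In CPM, vSMC held more Col1a2 (153) than Col4a2 (81.8).

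The minor type IV chains Col4a3 to Col4a6, known from kidney and other specialised basement membranes, were lower. Col4a5, whose product joins either Col4a3 and Col4a4 products or that of Col4a6, stood at 140.4 CPM in FB (126 to 156), 62.0 in aSMC, 19.7 in vSMC, 16.7 in PC and 6.31 in vEC. It was at or below 0.0925 CPM in aEC, capilEC, CP-EC and MG. At least 50 CPM was found in 5 of 9 FB cells and 7 of 41 aSMC cells, and FB was at 214 CPM without plate s169s. Without its top cell, Col4a5 was at 0.222 CPM in vEC and 7.19 CPM in PC. In vSMC it was at 6.54 CPM without plate s169s. Col4a6 reached 128 CPM in FB, where 1 cell gave 75.6% of its reads (34.7 CPM without it). It reached 53.7 CPM in vSMC, where 1 cell gave 81.4% (10.5 CPM without it), and no mural cell held at least 50 CPM of both. Col4a3 was highest in PC (27.2 CPM), as was Col4a4 (40.4 CPM), with 58.8% and 60.7% of these reads from 1 cell, and only 1 mural cell of 124 held at least 50 CPM of both.

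FB was the only label with more than 1.19 CPM of Col1a1. Col1a1, the alpha 1 chain, was at 1589 CPM in FB (1541 to 1639), 1.19 in capilEC, 0.467 in PC, 0.351 in aEC, 0.302 in CP-EC, 0.184 in MG, 0.172 in aSMC and 0.142 in vEC. No read of it was found in vSMC, where 3 reads would be 0.477 CPM. FB was therefore high and every other label was near 0. Col1a2, the alpha 2 chain, was at 1727 CPM in FB (1676 to 1779), 239.7 in aSMC (231 to 249), 206 in PC (198 to 215) and 153 in vSMC (143 to 163). Plates spread far wider than these intervals. Col1a2 ran from 2.00 CPM (s169s) to 503 CPM (s480s) in PC and from 90.8 to 304 CPM in aSMC. In vSMC it ran from 2.04 CPM (s482s) to 348 CPM (s169s). It was at 1.77 CPM in vEC, 1.55 in capilEC, 0.607 in aEC and 0.521 in MG, and no read was found in CP-EC (3 reads would be 0.906 CPM). Col3a1, the type III chain, was at 450.2 CPM in FB (425 to 477), 321 in PC (310.3 to 332), 74.5 in aSMC and 7.92 in aEC, and at 0.604 CPM or less in the other 5 labels. In aEC 96.8% of its reads came from 1 cell. In aSMC 1 cell gave 50.6% of them (39.3 CPM without it), and without plate s480s aSMC was at 17.7 CPM and PC at 215 CPM. FB was at 291 CPM of Col3a1 without plate s482s. The type I levels also moved by over 1.5 times: FB had 975 CPM of Col1a1 without its top cell and 1024 CPM without cells that carried markers of another class, PC had 126 CPM of Col1a2 without plate s480s, and vSMC had 96.9 CPM of Col1a2 without plate s169s.

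For the comparison of FB with the highest other label of each gene, a gene met the size rule when the group with more of it had 50 CPM or more, 50% or more of that group's cells had a read, and the groups were 4-fold apart on log2(CPM + 5). Of 32 measured collagen genes, 2 met it as higher in FB, Col1a1 (log2 difference 8.01, against capilEC) and Col1a2 (2.82, against aSMC), where 0.374% of the 15494 genes tested did. None met it as lower, where 8.47% of all genes did. By the 4-fold line alone, 9 were higher in FB (2.49% of all genes) and 11 lower (43.2% of all genes), which is 28.1% and 34.4% of those measured. The median difference was 0.13 over the collagen genes and -1.67 over all genes tested, on the same log2 scale. Col3a1 differed by 0.48 from PC, and the sign turned without plate s482s (-0.40) or without cells that carried markers of another class (-0.15).

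The 9 FB cells were unlike one another. Total collagen ran from 78.9 CPM to 18209 CPM with a median of 4266 CPM, and the number of chains at 50 CPM or more from 0 to 13. Col1a1 was at 7191, 2817, 1809, 1312, 709, 505, 7.61, 6.86 and 0 CPM in the 9 cells, and Col1a2 was at 50 CPM or more in the same 6 cells that held Col1a1 at that level. All 9 cells held the fibroblast markers Dcn (1652 to 9053 CPM) and Lum (130.4 to 4705 CPM), including the 3 cells low in type I collagen. The cell that held least collagen had 291596 reads, more than the FB median of 252679, so it was not a shallow cell. Cells 3 and 5, also low in type I collagen, had 123493 and 131329 reads, the fewest of the 9. The part of depth in their low levels was not tested.

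**Figure D4:**
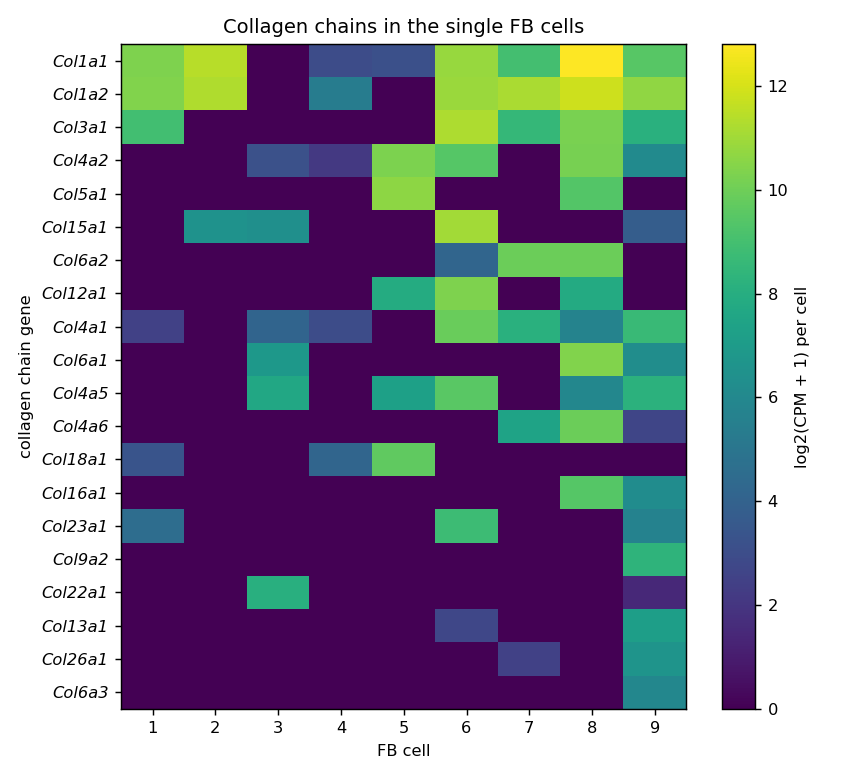
Level of the 20 collagen genes that reached 50 CPM in at least 1 of the 9 FB cells (rows) in each cell (columns), as log2(CPM + 1). Cells 3, 4 and 5 lack high Col1a1 and Col1a2, and Col6a1, Col6a2, Col5a1, Col12a1 and Col15a1 are each at 50 CPM or more in 2 or 3 cells.

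Some mural cells held Col1a2 without Col1a1. Of the 124 PC, aSMC and vSMC cells, 31 (25%, exact binomial 95% interval 17.7 to 33.6%) held at least 50 CPM of Col1a2, and 0 held at least 50 CPM of Col1a1 (3 of 124 cells would be 2.42%, and the exact binomial upper limit is 2.93%). These limits cover the counting of cells and not the spread between plates or animals. In sum the 3 labels held 5956 reads of Col1a2 and 7 of Col1a1. Per kilobase of exon, Col1a1 was 1.74 times Col1a2 in FB (1.67 to 1.82), 0.0043 times in PC (0.0014 to 0.010) and 0.0014 times in aSMC (0.00016 to 0.0049), and vSMC had 961 reads of Col1a2 and 0 of Col1a1. FB held 4063 reads of Col1a1 and 4415 of Col1a2, so a ratio above 1 there rests on the exon lengths used. Of these FB reads, 1 cell gave 44.7% for Col1a1 and 1 cell gave 23.1% for Col1a2, a spread that the interval does not cover. The 31 mural cells had a median of 599 CPM of Col1a2, and not 1 read of Col1a1.

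**Figure D5:**
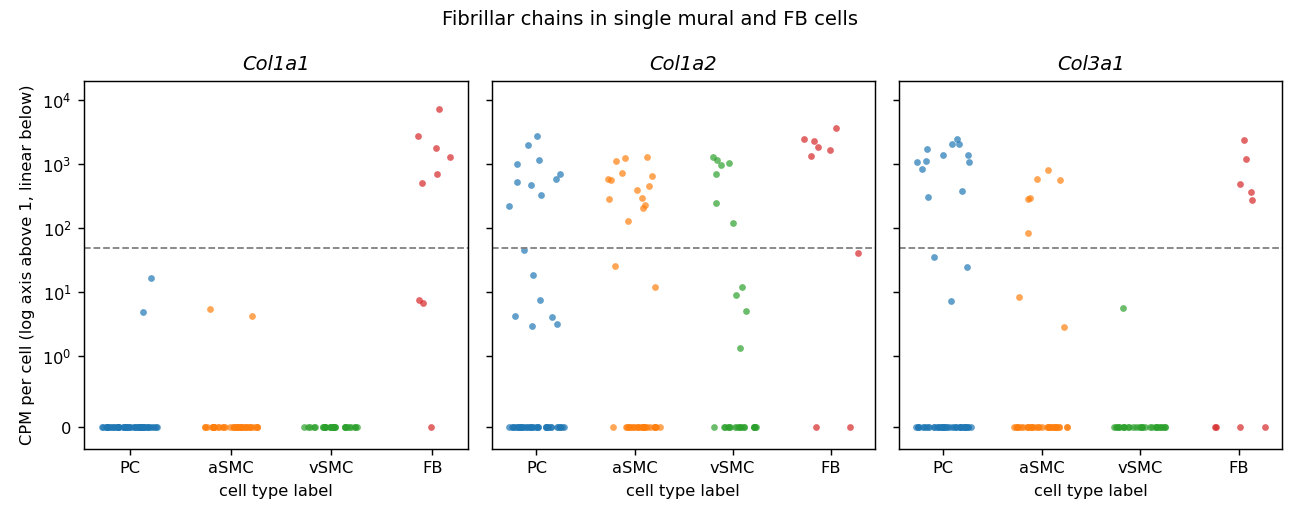
CPM per cell of Col1a1, Col1a2 and Col3a1 in each PC, aSMC, vSMC and FB cell (1 point per cell, scattered sideways at random; the axis is logarithmic above 1 and linear below; the dashed line is 50 CPM). Col1a2 has 31 mural cells above the line and Col1a1 has none, while 6 FB cells lie above it for both.

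The levels of fibroblast markers in these cells were low. In the 31 mural cells with Col1a2 the 8 fibroblast markers summed to 189 CPM, of which Dcn gave 67.2 CPM, compared with 211 CPM in the 93 mural cells below 50 CPM of Col1a2 and 14597 CPM in FB. Pdgfra, a marker of perivascular fibroblasts, had 0 reads in the 31 cells and 1999 reads in the 9 FB cells. However, 3 of the 9 FB cells also had no Pdgfra read, and these held 1312, 2817 and 1809 CPM of Col1a1. A lack of Pdgfra reads alone thus does not set a cell apart from FB. The 5 mural markers summed to 6976 CPM in the 31 cells and to 547 CPM in FB. Over the whole labels the fibroblast list summed to 357 CPM in PC, 55.1 in aSMC and 224 in vSMC. Among cells without markers of another class, Col1a2 was at 286 CPM in PC, 270.4 in aSMC and 224 in vSMC, and Col1a1 at 0.564, 0.097 and 0 CPM.

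Col3a1 was at 50 CPM or more in 18 of the 124 mural cells, and Col1a2 in 31. In PC alone, 12 cells held Col3a1 and 10 held Col1a2 at that level. At least 50 CPM was found in 12 of 54 PC cells and 6 of 41 aSMC cells, but in 0 of 29 vSMC cells. Of these 18 cells, 8 also held at least 50 CPM of Col1a2. In vSMC, Col3a1 had 0.159 CPM, below aSMC by 3.95 log2 units. PC stood above aSMC by 2.04 log2 units and was higher in 4 of 4 plates (1.90 to 4.99). In plate s169s the PC reads came from 1 of 10 cells, and in s483s from 2 of 12. In these plates aSMC was at 0 and 0.718 CPM, so the differences there rest on few cells.

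For mural against endothelial labels, the mean of PC, aSMC and vSMC was set against the mean of aEC, capilEC and vEC. No collagen gene of 20 measured met the size rule in either direction, where 1.12% of all genes tested were higher and 1.79% lower. By the 4-fold line alone, 8 were higher in mural labels (6.6% of all genes) and none lower (4.15% of all genes), so 40% of those measured were higher. These 8 were Col1a2 (5.02), Col3a1 (4.13), Col8a1 (3.56), Col6a2 (2.74), Col9a3 (2.72), Col4a5 (2.40), Col4a6 (2.25) and Col4a4 (2.15), on the log2 scale. Col1a2, Col3a1, Col8a1, Col6a2 and Col4a5 were higher in 4 of 4 plates, whereas Col9a3 was higher in 1, Col4a6 in 2 and Col4a4 in 3. The smallest plate difference was 4.43 for Col1a2 and 3.07 for Col3a1, but 0.46 for Col4a5, 0.13 for Col8a1 and 0.02 for Col6a2. The last 2 were thus near 0 in at least 1 plate, and Col6a2 was at 50 CPM or more in 3 of 124 mural cells. All 8 were read in fewer than 50% of mural cells, and only Col1a2, Col3a1 and Col8a1 reached 50 CPM there. The median difference was 1.55 over the 20 collagen genes and -0.03 over all genes tested.

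Col4a1 and Col4a2 differed little between these groups. Col4a1 had a mean of 386 CPM in the mural and 255 CPM in the endothelial labels, a difference of 0.58 that recurred in 4 of 4 plates (0.20 to 1.11). Col4a2 had means of 279 and 234 CPM, a difference of 0.25 with plates of both signs (-0.52 to 1.70).

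Within the endothelium, no collagen gene met the size rule. Of 7 measured between aEC and capilEC, 2 were past the 4-fold line as higher in aEC, where 0.842% of all genes were (0.148% by the size rule). Col14a1, a chain that decorates fibrils, was at 83.0 CPM in aEC and 5.90 in capilEC (log2 difference 3.01), and at least 50 CPM was found in 18 of 116 aEC cells. Col18a1, whose product is a proteoglycan of vessel basement membranes and the source of endostatin, was at 66.7 CPM in aEC and 3.84 in capilEC (3.02), with 15 of 116 aEC cells at 50 CPM or more. Both were higher in 3 of 4 plates. In plate s169s, with 7 aEC cells, no read of Col18a1 was found in aEC. Without aEC cells that carried markers of another class, Col18a1 was at 71.5 CPM in aEC. None was past the 4-fold line as lower, where 0.668% of all genes were (0.0955% by the size rule).

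Of 7 measured between vEC and capilEC, Col6a6 alone was past the 4-fold line, as higher in vEC (1.98% of all genes; 0.296% by the size rule). It was at 39.8 CPM in vEC and 1.4 in capilEC (2.81), was higher in 4 of 4 plates (0.77 to 4.87), and was read in 11 of 45 vEC cells, 1 of which gave 49.0% of the reads. Without that cell it was at 20.9 CPM. The fibroblast list stood at 1057 CPM in vEC, nearly all of it Apod, and its part in this value was not tested. Col6a6 encodes a type VI chain and shares part of its sequence with Col6a5, which had no read. None was lower (1.99% of all genes; 0.212% by the size rule).

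In CP-EC, 3 of 7 measured genes were past the 4-fold line as higher than capilEC, where 5.14% of all genes were (0.579% by the size rule). Col13a1, a transmembrane collagen, was at 249 CPM in CP-EC and 0.283 in capilEC (5.59), with 5 of 17 CP-EC cells at 50 CPM or more and 159 CPM without the top cell. FB had 31.7 CPM of it, almost all from 1 cell, and the other 7 labels were at 0.946 CPM or less. Col15a1, which links basement membranes to the matrix, was at 54.4 CPM in CP-EC and 0.0578 in capilEC (3.55), with 4 of 17 cells at 50 CPM or more. Col9a3 (2.41) came from 1 CP-EC cell. Plate s483s, the only one with at least 5 CP-EC cells, gave 5.73 for Col13a1 and 4.30 for Col15a1. None was lower, where 18.3% of all genes were (1.63% by the size rule). Col4a2 was higher in CP-EC by 1.34 and Col4a1 by 0.68, both under 4-fold.

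Between PC and aSMC, none of 20 measured genes met the size rule (1.26% of all genes higher in PC, 1.22% lower), 5 were past the 4-fold line as higher (11% of all genes, 25% of those measured) and 3 as lower (7.53% of all genes, 15% of those measured). Of the 5, Col3a1 has been described, and Col9a3, Col12a1, Col8a2 and Col14a1 drew 100%, 100%, 99.6% and 71.7% of their PC reads from 1 cell. The 3 lower genes, Col5a1, Col16a1 and Col6a2, drew 99.7 to 100% of their aSMC reads from 1 cell. Col18a1 was at 178 CPM in aSMC and 50.5 in PC and was lower in PC in 4 of 4 plates (-5.06 to -0.45). It was at 50 CPM or more in 14 of 41 aSMC cells and 5 of 54 PC cells, and PC was at 16.4 CPM without plate s480s, 29.3 without its top cell and 33.3 with every cell weighted equally. Col8a1, a short-chain collagen of vessel walls, was at 105 CPM in PC and 75 in aSMC, from 5 and 3 cells at 50 CPM or more.

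Between vSMC and aSMC, none of 17 measured genes met the size rule (1.08% of all genes higher in vSMC, 0.869% lower), 2 were past the 4-fold line as higher (9.86% of all genes, 11.8% of those measured) and 5 as lower (10.7% of all genes, 29.4% of those measured). Col18a1 was at 28.1 CPM in vSMC and was lower than in aSMC in 4 of 4 plates (-5.33 to -0.87), and Col3a1 was lower in 3 of 4. The other 3 that were lower, Col4a3, Col5a1 and Col16a1, drew 51.2% to 100% of their aSMC reads from 1 cell. Col4a6 and Col28a1 were higher, from 3 and 2 vSMC cells with a read.

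Of the 6 type VI genes, whose products form beaded filaments, Col6a1, Col6a2 and Col6a3 had their highest level in FB and Col6a6 in vEC, with 0 reads in FB. Col6a1 was at 154 CPM in FB and at most 0.159 CPM elsewhere, and Col6a2 was at 269 CPM in FB, 55.6 in vSMC and 29.5 in aSMC. In vSMC and aSMC, 93.1% and 99.7% of the Col6a2 reads came from 1 cell. In FB, 1 cell gave 85.6% of the Col6a1 reads (24.7 CPM without it) and 1 cell gave 63.2% of the Col6a2 reads (119.7 CPM without it). Col6a3 was at 12.9 CPM in FB, from 1 cell. At least 50 CPM of Col6a1 was found in 3 FB cells and of Col6a2 in 2, with 1 cell in common.

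The remaining genes that led in FB were Col5a1 (149.8 CPM), Col12a1 (124 CPM), Col16a1 (84.1 CPM), Col9a2 (70.0 CPM), Col23a1 (43.4 CPM), Col26a1 (22.3 CPM), Col22a1 (13.3 CPM) and Col15a1 (163 CPM). Each drew 55.4% to 100% of its FB reads from 1 cell. In PC the leading genes beside those named were Col5a2 (51.4 CPM, 6 cells with a read) and Col5a3 (11.8 CPM, 2 cells). Col5a2 encodes the usual partner of the Col5a1 chain in type V collagen, and no FB cell had a read of it although 2 FB cells held Col5a1. Col20a1 led in aSMC (9.46 CPM, 1 cell). Col27a1, a fibrillar chain, led in MG at 40.1 CPM, where 20 of 137 cells had a read and 8 reached 50 CPM. Of the 26 genes that reached 5 CPM without both minimums, 20 drew at least 50% of the reads of their leading label from 1 cell.

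Other genes of collagen making and turnover were counted in 5 lists of 57 genes in all, to be read against the share of all genes that met the rule in FB (0.374% higher, 8.47% lower). Of 11 measured genes of processing and cross-linking, 1 met the size rule as higher in FB: Loxl1, a lysyl oxidase, at 576 CPM against 40.2 in the highest other label (3.68). Of 8 small leucine-rich proteoglycans and partners, 2 did: Dcn at 3709 against 102 CPM (5.12) and Lum at 1525 against 30.0 CPM (5.45), both also used above as fibroblast markers. Of 8 receptors, 3 were lower in FB than in the highest other label. Lair1 was at 0.391 CPM against 829.6 CPM in MG, and at 53.4 CPM or less in the remaining labels. Itga1 was at 84.9 against 648 CPM in vSMC, and Itgb1 at 282 against 1359.9 CPM in aSMC. Of 16 hydroxylases and chaperones none was higher and Colgalt1, which glycosylates collagen, was lower, with 0 reads in FB against 172 CPM. Of 8 breakdown genes, 0 met the rule in either direction.

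In mural against endothelial labels, Pcolce, which enhances removal of the procollagen C-propeptide, was at 432 against 1.23 CPM (6.13) and was the only one of 11 processing genes to meet the rule. Ddr2, a receptor for fibrillar collagen, was at 278 against 20 CPM (3.50), 1 of 7 receptors. Bgn, a proteoglycan that binds type I collagen, was at 1203 against 27.9 CPM (5.20), 1 of 8 in its list. Over all genes tested, 1.12% met the rule as higher there. None of 16 hydroxylases and chaperones and none of 7 breakdown genes met it. In the 31 mural cells with Col1a2, Pcolce was at 654 CPM and Bgn at 1362 CPM, compared with 388 and 1230 CPM in the 93 other mural cells. The median cell held 7.29 against 6.08 CPM of Pcolce and 1044 against 624 CPM of Bgn. Pcolce had no read in 15 of the 31 cells and in 40 of the 93. Between CP-EC and capilEC, Timp3, an inhibitor of matrix proteases, was at 2012 against 416 CPM (2.26), 1 of 2 breakdown genes measured, where 0.579% of all genes met the rule. Between PC and aSMC, Nid1, which ties type IV collagen to laminin, was at 471 against 86.9 CPM (2.37), 1 of 7 in its list, where 1.26% of all genes did. No gene of the 5 lists met the rule between aEC and capilEC, vEC and capilEC, or vSMC and aSMC.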

How the data were processed

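The authors deposited unnormalized whole-number read counts for every gene in every cell, and a type label for each cell. Subread 1.4.6-p5, featureCounts and SAMtools 1.16.1 appear in the submitters' processing notes, which give GRCm38 and GRCm39 no role. The aligner, the use of strand in counting and the way labels were assigned are not given in the sources used here. Every cell held at least 100021 reads and was kept, and no doublet caller was run. Smart-seq2 carries no molecular identifiers, so PCR copies are counted as reads and intervals cover counting error only.

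Within a label, the cells' counts were added up and expressed as counts per 1000000 reads (CPM), using Python 3.11.15, NumPy 2.4.6, pandas 2.3.3 and SciPy 1.17.1. Differences are on log2(CPM + 5). A gene counted as measured with at least 5 CPM in either group. Plate values used plates with at least 5 cells of each compared label. Members reaching 50 CPM with a read in 50% of a label's cells are described in every label, and others by their leading label. List genes are named where they met the size rule. Lengths are the union of GENCODE M21 exons. The size rule was tested on simulated counts with 200 changed genes. These genes were read in most capilEC cells, and only the cell numbers of PC, aSMC, vEC and capilEC were used. The simulation thus does not cover sparsely read genes or FB. Alternatives used TMM factors (edgeR 4.0.16), DESeq2 1.42.0 size factors (R 4.3.3), equal weight per cell, pseudocounts of 1 and 20, dropping the CPM minimum, dropping the minimum share of cells, library sizes without 223 ribosomal RNA and mitochondrial rows (3.14% of reads), and cells, plates or the top cell of each gene left out. A cell was left out where its summed markers of another class were above 10% of the median in cells of that class. The members and lists were chosen with earlier results of these data known.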

Additional observations from a re-analysis of the deposited data

How the results depend on the processing

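The 14 counts of collagen genes that met the size rule were recomputed under 14 alternatives. Of the 14, 13 were 0. Of 196 recomputed counts, 170 stayed at 0, 14 moved, and the others left the 2 genes higher in FB at 2. Without the minimum share of cells, the counts were 7 higher and 5 lower in FB, 3 higher in mural labels, 2 higher in aEC, 2 higher in CP-EC, 2 higher in PC than in aSMC, and 1 higher and 2 lower in vSMC than in aSMC, since fewer conditions then apply. Without plate s169s, 4 genes were higher in FB (Col1a1, Col1a2, Col12a1 and Col6a2). The count lower in FB was 1 without plate s480s (Col4a2), 1 without plate s482s (Col4a1), 1 without the top cell of each gene (Col4a2) and 1 without cells with markers of another class (Col4a2). Without plate s483s, 1 gene was lower in vSMC than in aSMC (Col4a2). For these the cause was not tested. Scaling moved the median of all genes by over 0.1 log2 units with TMM in vEC (-0.17), CP-EC (-0.11) and PC (-0.14), and with DESeq2 in FB (0.11), mural labels (0.18), CP-EC (0.26) and PC (-0.11), and no count changed by over 1.5 times under either. The Col1a1 difference of FB ran from 6.25 with a pseudocount of 20 to 9.51 with 1. Leaving out FB cells with markers of another class left 6 of 9.

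No paired analysis was possible because each label has 1 sample and no replicate number. Differences within plates stand in the report. With 9 FB and 17 CP-EC cells, 3 reads are 1.17 and 0.906 CPM, and levels there rest on few cells. The number of animals behind the cells was not stated.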
